A study of Mus musculus with 3 samples.

Results

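Of the 28692 genes in the count matrices, 83 carried a symbol of the solute carrier families Slc1a, Slc2a, Slc3a, Slc6a, Slc7a, Slc16a or Slc38a, which hold most of the known plasma-membrane carriers of amino acids, glucose and lactate. Members were chosen by symbol alone, and 37 of the 83 had at least 30 UMIs (molecular tags that each mark 1 captured transcript) over all 14336 barcodes. A further 21 had 1 to 29 UMIs and 25 had none. The 37 together held 33251 of 34551600 UMIs, or 0.0962%. Just inside the minimum lay Slc6a20b with 30 UMIs and Slc7a4 with 33, and just outside lay Slc16a12 with 22 and Slc38a3 with 16. The choice by symbol also took in Slc7a6os, a neighbour of Slc7a6 on the opposite strand whose product is not a transporter.

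The data came from 3 single-cell libraries of 1 group: mammary gland tumours of mice, 4 weeks after injection of 2208L cells (a mouse mammary tumour line) and at a size of 0.7 to 1 cm. Live leukocytes, positive for CD45 and negative for DAPI, had been sorted from them. There was no untreated, second-genotype or normal-tissue group, and the labels give the cell type as tumour although the sort selected leukocytes. Every comparison below was therefore made inside the libraries, between classes of barcodes. Whether each library is a different animal is not stated. The p-values measure only how far differences between classes vary over these 3 samples, and that variation may be technical.

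The libraries held 9445914 to 15259236 UMIs over 3876 to 6036 barcodes each, and any pair of libraries shared 25 to 37 barcode sequences. After filtering, 14225 barcodes were clustered with the transporter genes taken out of the variable genes. Clusters were named from marker genes as neutrophil-like (6031 barcodes), T-cell-like (3191), monocyte/macrophage-like (3047), NK-cell-like (521), dendritic-cell-like (510), epithelial-like (273), plasmacytoid-dendritic-cell-like (210) and B-or-plasma-cell-like (77, not tested because 1 library held 13). The neutrophil markers summed to between 66542 and 74951 CPM in neutrophil-like barcodes and to between 1672 and 2419 in monocyte/macrophage-like ones. The monocyte-like cluster was led by Cd209a, which is also a dendritic cell gene, and was kept in 1 class with the macrophage-like clusters. Clusters left without a name, 365 barcodes in all, entered no comparison. Among them, a cluster of 123 barcodes led by Gzmk, Ccl5 and Trac did pass the marker rule. Its name was withheld for a median doublet score of 0.2434, above the limit of 0.15. Levels are CPM (a gene's share of the UMIs of the same class and library, put on a common total). They are not comparable between genes, since transcripts differ in how well they are captured, and a lower level can mean less transcript or a larger pool of other RNA. Fitted log2 differences use totals rescaled by TMM (a correction of totals between sums), so they need not equal the ratio of the printed CPM.

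Solute carriers move small molecules through membranes down or against their gradients. GLUT proteins of the Slc2a family let glucose in, and the Slc16a family includes monocarboxylate transporters that carry lactate with a proton, of which Slc16a3 (MCT4) is known for lactate export from glycolytic cells. Several Slc7a light chains work only when bound to the heavy chain that Slc3a2 (CD98) encodes. Among them, Slc7a11 (xCT) exchanges glutamate for cystine, a precursor of glutathione, while Slc7a5, Slc7a7 and Slc7a8 exchange neutral or basic amino acids. Neutrophils depend strongly on glycolysis, which makes their glucose and lactate carriers of interest in a tumour.

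**Figure D1:**
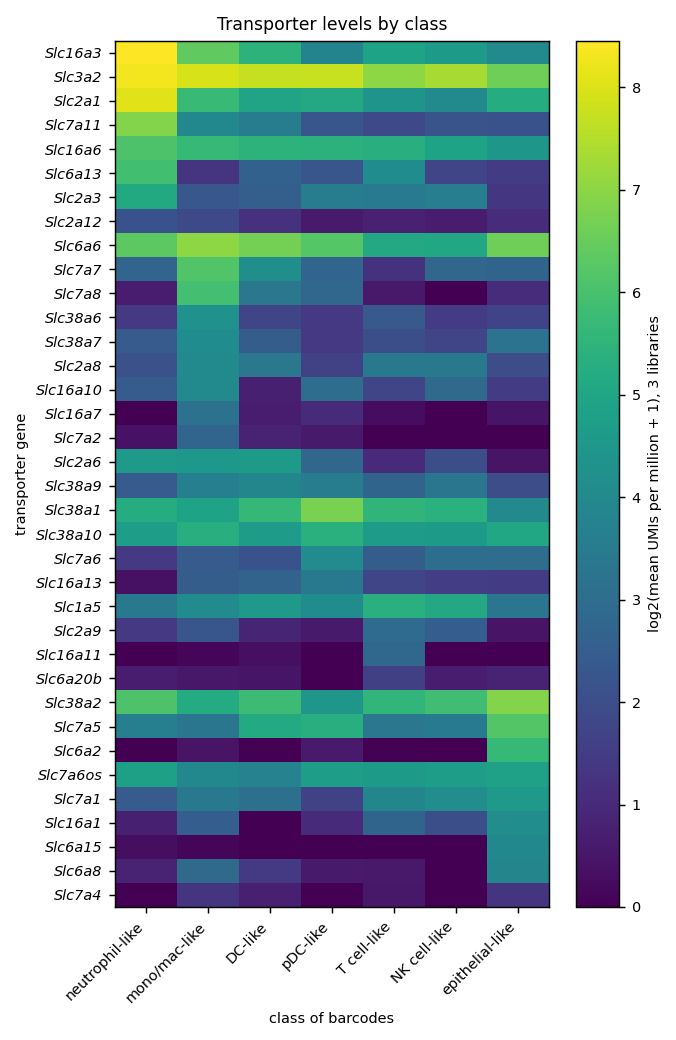
Mean level of 36 of the 37 transporter genes, as log2(CPM + 1) over 3 libraries, in the 7 tested classes; rows are grouped by the class with the highest mean. Slc16a3, Slc2a1, Slc7a11, Slc6a13 and Slc2a3 are brightest in the neutrophil-like column, Slc7a7 and Slc7a8 in the monocyte/macrophage-like column and Slc6a2 in the epithelial-like column.

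By mean level, 8 of the 37 genes were highest in neutrophil-like barcodes, 9 in monocyte/macrophage-like, 10 in epithelial-like, 4 in T-cell-like, 4 in plasmacytoid-dendritic-cell-like and 2 in dendritic-cell-like ones.

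Neutrophil-like barcodes stood out by the glucose carriers Slc2a1 (GLUT1) and Slc2a3 (GLUT3), the lactate exporter Slc16a3, the cystine carrier Slc7a11 and the taurine and GABA carrier Slc6a13 (GAT2). Against monocyte/macrophage-like barcodes, 11 of the 27 transporter genes tested were higher and 10 lower, while 33.2% of all 9436 genes tested were higher and 33.4% lower (edgeR's quasi-likelihood test with library as a block, Benjamini-Hochberg adjusted p under 0.05). The members' median difference was 0.36 on the log2 scale, against -0.03 over all genes tested, but its sign was not stable: it was 0.09 without replicate 1, -0.31 without replicate 2, -0.51 without replicate 3 and -0.35 under a stricter barcode filter (500 genes or more, 5% mitochondrial UMIs or less).

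Slc2a1 (chr4:119108711-119137983, GRCm38), the main basal glucose carrier, reached 261, 257 and 285 CPM in the neutrophil-like sums of replicates 1, 2 and 3, against 54.5, 53.0 and 49.5 in the monocyte/macrophage-like sums. The groups did not overlap, and the fitted difference was 2.67 ± 0.10 on the log2 scale (SE; adjusted p = 8.04e-21; higher in 3 of 3 libraries). Slc16a3 (chr11:120948480-120960868) showed the same order, with 371, 305 and 373 CPM in neutrophil-like sums, against 79.6, 79.0 and 88.4 in monocyte/macrophage-like ones. Its difference was 2.39 ± 0.12 (adjusted p = 1.91e-17). Both genes take part in the handling of sugar at its entry and of lactate at its exit, and both were the highest of all classes in neutrophil-like barcodes. The second glucose carrier, Slc2a3 (chr6:122727809-122801640), had fewer counts, at 29.3, 40.9 and 33.3 CPM against 5.51, 2.86 and 3.43, and differed by 3.46 ± 0.27 (adjusted p = 5.82e-13).

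Slc7a11 (chr3:49892526-50443614) had 123, 122 and 105 CPM in neutrophil-like sums, against 16.1, 13.7 and 13.4 in monocyte/macrophage-like ones. The difference was 3.34 ± 0.16 on the log2 scale (adjusted p = 4.70e-18). Its partner chain Slc3a2 (chr19:8706882-8723369), which had the most UMIs of all members, was spread more evenly: 319, 303 and 317 CPM in neutrophil-like sums, against 234, 258 and 247 in monocyte/macrophage-like ones. The fitted difference was 0.66 ± 0.11 (adjusted p = 5.94e-06), with no overlap in CPM between the groups. This value follows TMM scaling and is larger than the gap between these CPM. With library totals in place of TMM, the median of all genes tested was -0.34 in place of -0.03. Slc6a13 (chr6:121300227-121337733) had the largest difference among the higher genes, 5.46 ± 0.26 (adjusted p = 2.10e-18): 73.2, 49.2 and 51.4 CPM, against 1.54, 1.96 and 0.858. RNA free in the droplets can give all classes a small share of neutrophil transcripts, but its amount was not estimated. The monocyte/macrophage-like level of Slc6a13 was 1.67% to 3.98% of the neutrophil-like one, near the 2.01% to 2.51% of the neutrophil gene S100a8. It can therefore not be told from carry-over of neutrophil transcripts, whose source was not tested. The same share was 11.3% to 13.1% for Slc7a11, 17.3% to 20.9% for Slc2a1 and 21.4% to 25.9% for Slc16a3. The neutrophil gene Csf3r, which monocytes are also known to carry, stood at 8.998% to 11.9%, near Slc7a11.

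A neutrophil-like barcode held a median of 901 UMIs and a monocyte/macrophage-like one 4243, so a share of UMIs and a number of UMIs per barcode give different answers. Per 100 barcodes, Slc2a1 had 23.8, 24.8 and 33.6 UMIs in neutrophil-like barcodes and 24.2, 23.8 and 31.6 in monocyte/macrophage-like ones, which overlap. Slc16a3 had 33.8, 29.4 and 43.8 UMIs per 100 neutrophil-like barcodes, against 35.4, 35.5 and 56.4 per 100 monocyte/macrophage-like ones. With UMIs per barcode in place of shares, a scale added after the data were seen that moves the median of all genes to -2.59 (log2), Slc6a13, Slc2a3 and Slc7a11 remained higher, at 2.90 (adjusted p = 3.80e-12), 0.85 (0.0091) and 0.72 (0.000705). On that scale Slc2a1 differed by 0.04 (adjusted p = 0.790) and Slc16a3 by -0.23 (0.212), and 20 of the 27 members were lower in neutrophil-like barcodes. Less RNA in a neutrophil-like cell and less of it captured cannot be told apart here.

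The start regions of the genes with the largest excess in neutrophil-like barcodes are shown because 3 regulators of such genes read short motifs: HIF-1 (core ACGTG or GCGTG), ATF4 in the amino acid response (TGATGNAA) and NRF2 (core TGANNNNGC). RefSeq windows (GRCm38.p6) were in the table for 23 of the 37 members, and the 250 bases before each start were searched on both strands. The 4 stretches that follow are the up to 150 bases nearest the start that no annotated exon covers, 5′ to 3′ on the gene's own strand, with HIF and amino acid response matches in capitals.

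Slc6a13, chr6:121300077-121300226, plus strand: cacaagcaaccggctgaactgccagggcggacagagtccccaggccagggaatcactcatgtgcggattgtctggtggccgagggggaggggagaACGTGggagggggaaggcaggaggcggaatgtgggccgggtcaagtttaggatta

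Slc7a11, chr3:50443615-50443764, minus strand: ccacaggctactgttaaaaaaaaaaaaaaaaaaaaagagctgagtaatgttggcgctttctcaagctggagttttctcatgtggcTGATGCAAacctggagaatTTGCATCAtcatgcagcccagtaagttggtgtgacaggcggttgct

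Slc2a1, chr4:119108561-119108710, plus strand: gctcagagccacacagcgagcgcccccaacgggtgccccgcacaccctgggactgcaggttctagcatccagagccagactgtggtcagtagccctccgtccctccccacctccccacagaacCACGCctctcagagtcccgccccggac

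Slc16a3, chr11:120948903-120949052, plus strand: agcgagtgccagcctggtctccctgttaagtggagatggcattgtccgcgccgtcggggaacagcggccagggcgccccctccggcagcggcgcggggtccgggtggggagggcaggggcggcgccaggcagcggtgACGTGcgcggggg

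The Slc7a11 stretch held 2 matches to TGATGNAA, which begin 66 and 47 bases before the start and lie on opposite strands. Of all 32851 windows, 3.45% held at least 1 such match and 13 windows (0.0396%) held at least 2; among the members, Slc7a11 alone had 2. The antioxidant core TGANNNNGC also matched there at 97 and at 45 bases, the second overlapping an amino acid response match, but 35.2% of all windows held this short core. HIF cores were found before Slc2a1 (2 matches), Slc16a3 (2) and the first of 3 Slc6a13 starts (2), and none before Slc7a11; 38.6% of all windows held one. In each of these 3 genes 1 of the matches lies outside the printed stretch. The RefSeq start used for Slc16a3 lies inside its annotated gene interval (chr11:120948480-120960868), and so does the stretch printed for it. A match describes letters, and binding was not measured.

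**Figure D2:**
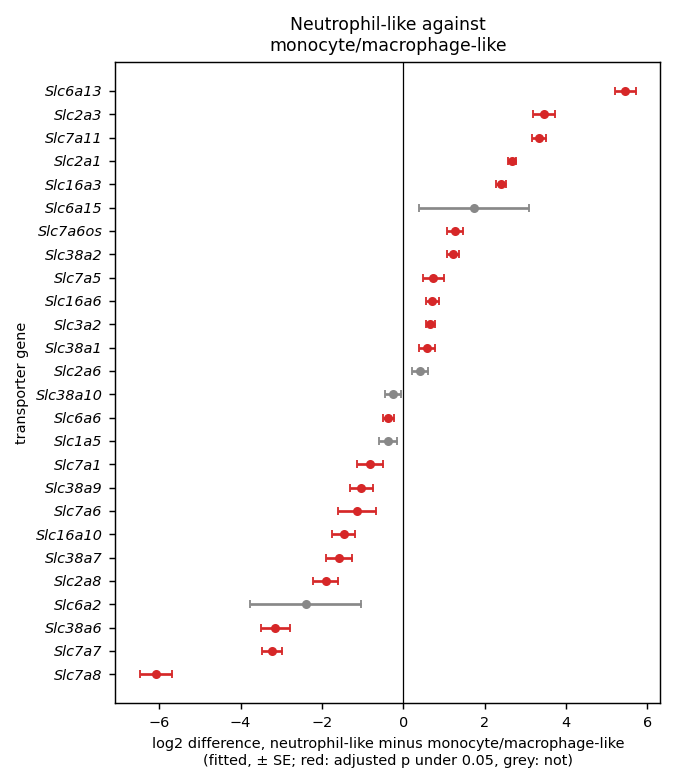
Fitted log2 difference, neutrophil-like minus monocyte/macrophage-like (± SE, n = 3 libraries), of 26 of the 27 transporter genes tested; red marks adjusted p under 0.05 and grey the rest. The points run from Slc6a13 at 5.46 to Slc7a8 at -6.08, and wide bars belong to genes with few UMIs in both classes.

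Of the 10 genes lower in neutrophil-like than in monocyte/macrophage-like sums, Slc7a8 and Slc7a7, both amino acid exchangers, differed most. Slc7a8 (LAT2, a neutral amino acid exchanger; chr14:54722209-54781946) had 0, 0.974 and 0.756 CPM in neutrophil-like sums, against 65.0, 43.5 and 70.4 in monocyte/macrophage-like ones (-6.08 ± 0.39, adjusted p = 1.42e-14). Slc7a7 (y+LAT1, which exports basic amino acids; chr14:54369442-54417780) had 2.66, 8.76 and 5.67, against 74.1, 63.7 and 71.8 (-3.22 ± 0.24, adjusted p = 2.24e-13). These light chains of the CD98 heavy chain were thus on the opposite side from Slc7a11, which pairs with the same heavy chain. Slc38a6, a member of the glutamine carrier family, had 1.997, 1.46 and 1.51 CPM, against 19.4, 16.7 and 18.9 (-3.14 ± 0.35). The other glucose carrier on this side, Slc2a8 (GLUT8, found on inner membranes), had 3.99, 0.974 and 4.91, against 17.6, 12.6 and 16.6 (-1.91 ± 0.31). Slc38a7, a lysosomal glutamine exporter, had 4.66, 4.38 and 4.16, against 18.5, 14.6 and 16.02 (-1.59 ± 0.32). In none of these 5 genes did the classes overlap, but the genes were named for a call in the same direction in every library. The share of all genes without overlap was not counted.

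The rest of the lower genes were Slc16a10, which carries aromatic amino acids (-1.46), Slc7a6 (-1.13), Slc38a9, a lysosomal arginine sensor (-1.03), the cationic amino acid carrier Slc7a1 (-0.82) and the taurine carrier Slc6a6 (-0.36). Slc6a6 was nonetheless abundant in both, with 75.9, 84.2 and 77.1 CPM in neutrophil-like sums and 142, 117 and 124 in monocyte/macrophage-like ones. The gap between these CPM is wider than the fitted -0.36, which follows TMM scaling. The remaining genes higher in neutrophil-like sums on the share scale were Slc7a6os (1.27), the glutamine carriers Slc38a2 (1.22) and Slc38a1 (0.59), Slc7a5 (0.74) and Slc16a6 (0.72), all of which turned lower per barcode, as did Slc3a2. Slc38a2 had 72.5, 61.8 and 69.2 CPM, against 31.75, 42.1 and 32.3. The calls for Slc38a1 and Slc7a5 were lost with library totals (0.27 and 0.42), with DESeq2 (0.49 and 0.61), under the stricter barcode filter (0.39 for both) and without replicate 3 (0.51 and 0.69), that for Slc38a1 also without replicate 1 (0.34) and that for Slc7a5 without replicate 2 (0.54). The call for Slc6a6 was lost without replicate 1 (-0.35) and without replicate 3 (-0.42). That for Slc7a6 was lost without replicate 2 (-1.10) and without replicate 3 (-0.98). It was also lost without the barcodes of highest doublet score (-1.06) and with classes from marker UMIs alone (-0.90). That for Slc7a1 was lost without replicate 3 (-0.79) and with classes from marker UMIs alone (-0.56).

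Set against the mean of the other 6 tested classes, 11 of 27 transporter genes were higher in neutrophil-like sums, where 35.0% of all genes were higher, and 6 were lower, where 29.1% of all genes were lower. The members' shares were thus 40.7% and 22.2%. Slc7a11, Slc6a13, Slc16a3, Slc2a1 and Slc2a3 led the higher genes, as they did against monocyte/macrophage-like sums. Of the lower genes, Slc7a6 had 1.997, 1.46 and 1.51 CPM in neutrophil-like sums and 10 UMIs in all, Slc7a1 had 3.99, 4.87 and 4.16, and Slc7a5 had 8.65, 11.7 and 14.4. Slc7a5 was lower than this mean (-0.52) while higher than the monocyte/macrophage-like level alone on the share scale, and the epithelial-like and dendritic-cell-like classes had more of it. Its lower call was at adjusted p = 0.0438 and was lost without the library block (-0.48, adjusted p = 0.0636), without replicate 1 (-0.44), without replicate 2 (-0.45), with no filter on low counts and with classes from marker UMIs alone (both -0.50). With library totals in place of TMM scaling, the calls over all genes turned from 3304 higher and 2743 lower to 2506 higher and 3651 lower, while those of the members were 10 higher and 7 lower. Without replicate 2, 11 members were higher and 1 lower, where 33.1% of all genes were higher and 17.7% lower. The lower call for Slc7a1 was then lost (-0.12). It was also lost without the barcodes of highest doublet score (-0.90) and with classes from marker UMIs alone (-0.79). Against monocyte/macrophage-like sums, library totals gave 2305 genes higher and 4057 lower, where TMM gave 3130 and 3152.

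**Figure D3:**
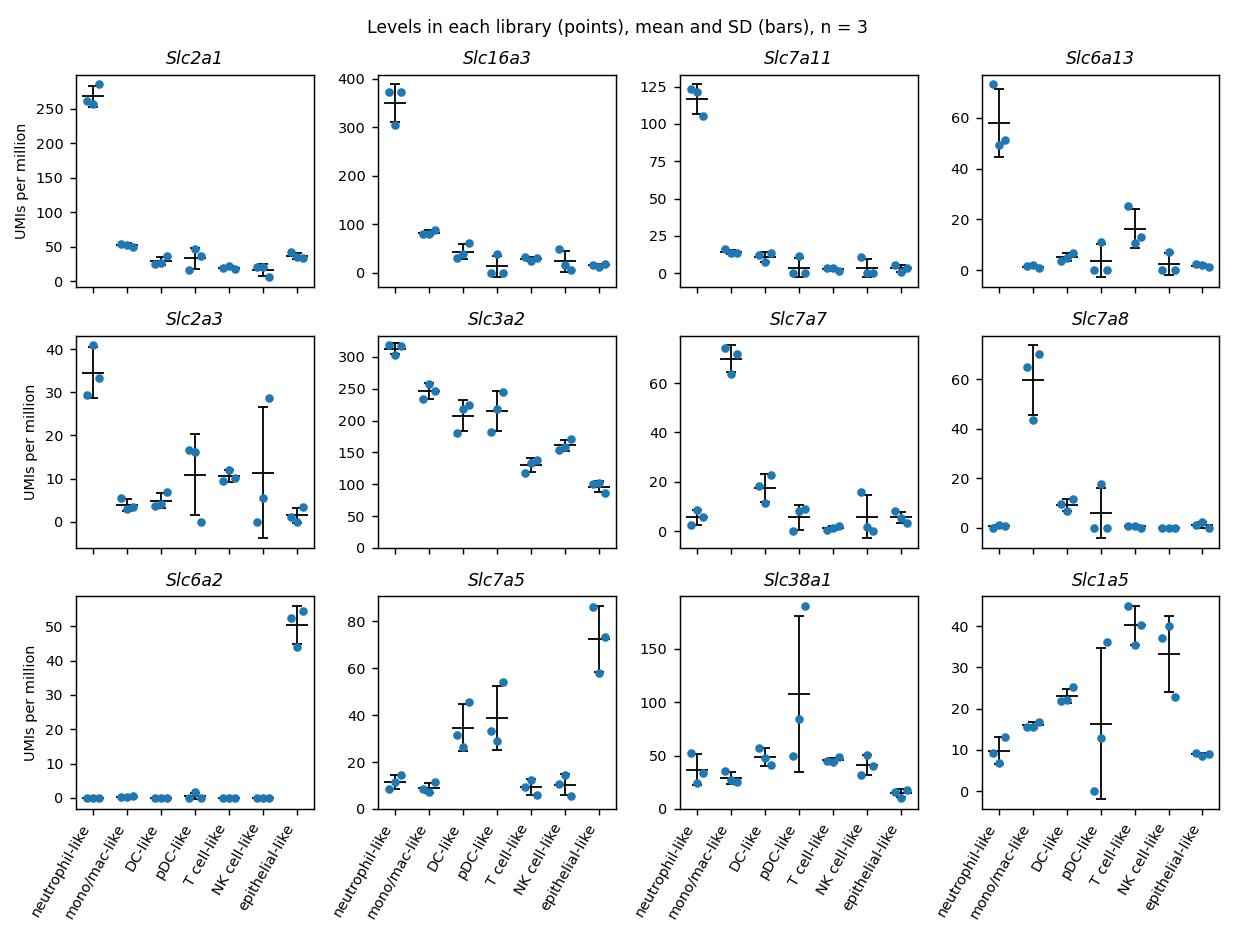
CPM of 12 transporter genes in each library (points) with the mean and SD (bars, n = 3) for the 7 tested classes, neutrophil-like at the left; the vertical axes differ between panels. The neutrophil-like points lie above all others for Slc2a1, Slc16a3, Slc7a11, Slc6a13, Slc2a3 and Slc3a2, while the plasmacytoid-dendritic-cell-like and NK-cell-like points scatter because few UMIs stand behind them.

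Monocyte/macrophage-like barcodes had the most transporter genes above the mean of the other classes: 15 of 27 were higher, against 28.5% of all genes, and 6 were lower, against 17.9%. Besides Slc7a8 (5.36), Slc7a7 (3.61) and Slc38a6 (2.63), the higher genes were led by Slc16a10 (2.36) and the intracellular glucose carrier Slc2a6 (GLUT6, 2.07). Slc16a10 had 11.7, 14.9 and 19.5 CPM in monocyte/macrophage-like sums, against 4.66, 3.89 and 4.91 in neutrophil-like ones. Slc2a6 had 24.0, 16.7 and 24.9 in monocyte/macrophage-like sums, and its neutrophil-like level of 20.6, 22.9 and 25.3 overlapped with it. Without replicate 2, 3 were lower in place of 6, where 8.24% of all genes were lower. The lower genes included Slc6a13 (-2.42), Slc7a5 (-1.38), Slc7a6os (-0.65) and Slc38a1 (-0.58); without replicate 2 the calls for Slc6a13 (-0.77) and Slc7a6os (-0.46) were lost, and with classes from marker UMIs alone that for Slc38a1 (-0.34). Slc7a6os had 17.6, 10.4 and 15.7 CPM in monocyte/macrophage-like sums, against 20.6, 25.3 and 35.5 in neutrophil-like ones.

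Within that class, the light chains were not uniform. Slc7a8 had 71.6, 69.3 and 100.01 CPM in a macrophage-like cluster led by Ccl8, Cbr2 and Folr2, 77.9, 50.0 and 73.4 in one led by Ms4a7 and Tmem119, and 33.0, 25.4 and 43.3 in the monocyte-like cluster. Every library of the monocyte-like cluster lay below every library of both of these macrophage-like clusters. Slc7a7 was closer among these 3 clusters, at means of 65.9 ± 14.2, 75.1 ± 6.71 and 61.2 ± 1.55 (SD, n = 3). A further macrophage-like cluster of 134 barcodes, led by Hist1h2ap, Birc5 and other cell-cycle genes, is left out of this description. Among genes too sparse for the test, Slc16a7 (MCT2) had 112 of its 123 UMIs in monocyte/macrophage-like barcodes and none in 6202173 neutrophil-like UMIs, which makes its level at least 15.8-fold higher there (floor of 3 counts over the group, which covers counting error only). Slc7a2, a cationic amino acid carrier that supplies arginine, had 87 of its 96 UMIs in the monocyte/macrophage-like class and 2 in the neutrophil-like one. Both genes reached the minimum of 30 UMIs through the class in which they are high.

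Epithelial-like barcodes, which carry keratin genes and should be rare after a CD45 sort, had 8 transporter genes higher, against 38.4% of all genes, and 11 lower, against 23.8%. The class also held all 7 fibroblast markers, which summed to between 623 and 1362 CPM there and to between 0 and 5.32 in the other tested classes. With classes from marker UMIs alone, where 11 fibroblast barcodes stood apart, the differences of Slc6a2 (8.32), Slc7a5 (2.38) and Slc38a2 (1.25) still passed the test. Slc6a2, the noradrenaline carrier (chr8:92960079-93001667), had 52.3, 44.0 and 54.5 CPM there and 135 of its 142 UMIs, against 5 UMIs in monocyte/macrophage-like barcodes and none in neutrophil-like ones. Its level was at least 104-fold higher than in neutrophil-like barcodes (floor of 3 counts over the group). Slc6a15, a neutral amino acid carrier, had 39 of its 42 UMIs in this class. Both Slc6a2 and Slc6a15 reached the minimum of UMIs set for members only through the epithelial-like class, in which they are high. Slc7a5 (LAT1, which brings in leucine and other large neutral amino acids) had 86.0, 57.9 and 73.5 CPM in epithelial-like sums, and a mean of 38.8 ± 13.6 in the class next to it, plasmacytoid-dendritic-cell-like. Slc38a2 had 114, 96.5 and 139, above every library of every other tested class. Slc7a1 had 27.9, 13.9 and 24.5, which overlapped with the NK-cell-like range of 10.6 to 21.8.

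Of the genes that marked neutrophil-like barcodes, Slc16a3, Slc2a3 and Slc6a13 were low in the epithelial-like class, while Slc2a1, at 41.8, 35.4 and 33.4 CPM, had a mean above those of 4 other tested classes. Slc16a3 had 16.3, 11.8 and 17.8 CPM, Slc2a3 1.16, 0 and 3.34, and Slc6a13 2.32, 2.14 and 1.11. The class was also low in Slc2a6, with 1 UMI in all, and in Slc38a1, with 16.3, 10.7 and 17.8 CPM. The calls for Slc16a3, Slc2a6 and Slc6a13 were lost without replicate 2, at differences of -0.495, -5.41 and -0.33. The lower members then numbered 5 in place of 11, where 18.8% of all genes were lower.

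Both lymphocyte classes carried more of Slc1a5 (ASCT2, an exchanger of glutamine and other neutral amino acids; chr7:16781340-16798274), while 17 of the 27 members in T-cell-like sums and 22 in NK-cell-like sums did not pass the test. In T-cell-like sums 2 members were higher, against 25.9% of all genes, and 8 lower, against 20.4%. Without replicate 2 the lower ones were 5, against 8.52% of all genes, and without replicate 3 the higher ones 4, against 23.4%. Slc1a5 had 44.8, 35.5 and 40.3 CPM in T-cell-like sums, against 9.32, 6.82 and 13.2 in neutrophil-like ones, and was 1.28 above the mean of the other classes. The lower genes were led by Slc7a7, with 0.631, 1.21 and 2.16 CPM, and Slc2a6, with 1.26, 1.21 and 0.719; Slc2a1 had 19.6, 22.2 and 17.98. NK-cell-like sums had 1 higher member, against 12.5% of all genes, and 4 lower, against 11.3%. The higher one was again Slc1a5, at 37.2, 40.0 and 22.9 CPM, and among the lower were Slc2a1, at 21.3, 20.0024 and 5.71, and Slc6a6, at 5.32, 34.55 and 57.1. The NK-cell-like count of 5 fell to 2 without replicate 2 and to 3 without replicate 3. Over all genes, the count of 2241 fell to 1288 and to 1855. The NK-cell-like call for Slc1a5, the only higher one, was lost without replicate 2 (0.60) and with classes from marker UMIs alone (1.175). That for Slc2a1 was lost with classes from marker UMIs alone (-1.12).

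The second gene higher in T-cell-like sums was Slc6a13 (1.43), with 25.3, 10.9 and 12.9 CPM, and it came from 1 group of cells. Of its 85 T-cell-like UMIs, 80 lay in the 854 barcodes of a cluster led by Il17a, Trdc and Tcrg-C1, genes of interleukin-17-making gamma-delta T cells, where it had 64.1, 63.2 and 26.6 CPM. The other T-cell-like clusters had 0 to 4.96. The neutrophil gene S100a8 had 646, 435 and 442 CPM in the Il17a-led cluster and up to 729 in another T-cell-like cluster, in which Slc6a13 had 3.34 or none. Over all T-cell-like sums Slc6a13 stood at 22.1% to 34.5% of its neutrophil-like level, while S100a8 stood at 1.33% to 1.40%. Slc16a11, an orphan member of the monocarboxylate family, also sat in 1 place. Of its 47 UMIs, 33 were in a T-cell-like cluster of cycling cells led by Ccl1 and Xcl1. Of these 33, 29 came from replicate 2 and none from replicate 3. Slc16a11 reached the minimum of UMIs set for members only through the T-cell-like class, which held 41 of the 47.

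Dendritic-cell-like sums had 7 members higher, against 20.6% of all genes, and 3 lower, against 11.8%. The count of 10 was 6 without replicate 1 and 5 without replicate 2, with none lower in either case. Over all genes the 3059 calls became 2282 and 2278, with 6.55% and 4.71% of genes lower. Slc2a6 was highest, 2.38 above the other classes, with 23.1, 24.7 and 22.9 CPM. Its level was higher in a small cluster of 95 barcodes led by Ccr7 and Fscn1, which mark migrating dendritic cells, although that cluster held 27 of the 59 UMIs: 66.0, 71.6 and 102.9 CPM there, against 15.7, 17.2 and 8.13 in the cluster led by Plet1 and Xcr1. Slc7a5 had 31.6, 26.3 and 45.8 CPM in the class, Slc7a7 18.2, 11.5 and 22.9, Slc7a8 9.73, 6.58 and 11.4, and Slc38a9 13.4, 13.99 and 13.7. On the lower side, Slc16a10 had 2 UMIs in all and Slc7a6os had 10.95, 12.3 and 13.7 CPM. Plasmacytoid-dendritic-cell-like sums, of which replicates 1 and 3 held 24 and 25 barcodes, had 3 members higher, against 11.6% of all genes, and 1 lower, against 10.6%. Over all genes these were 1093 higher and 1004 lower, and 1610 and 406 with library totals. Slc38a1, a glutamine carrier, had 49.6, 84.1 and 190 CPM there, and the lower gene Slc38a2 had 0, 37.2 and 27.15. All 11 Slc7a8 UMIs of this class came from replicate 2.

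Neutrophil-like barcodes were divided by 2 lists of state genes that hold no transporter: those with more detected genes of a tumour-state list (Siglecf, Ltc4s, Cxcl3, Hcar2, Hilpda, Tnfrsf23, Pla1a and Plau; 2814 barcodes) and those with more of a blood-like list (among them Retnlg, Mmp8, Cxcr2, Prok2, Padi4, Mmp9 and Ifitm6; 1404 barcodes). The 1813 ties were left out, and the median depths were 939 and 930 UMIs. Of 13 transporter genes tested, 3 rose and 1 fell in the tumour state, where 11.0% of 5149 genes rose and 11.4% fell (568 and 586 genes, and 712 and 480 with library totals in place of TMM).

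Slc3a2 had 385, 385 and 377 CPM in tumour-state sums, against 201, 235 and 246 in blood-like ones, a rise of 0.64 ± 0.11 on the log2 scale (SE; adjusted p = 5.78e-06). Slc38a2, whose transcript is known to rise when amino acids run short, had 83.4, 75.7 and 81.0, against 63.0, 45.5 and 37.2 (0.72 ± 0.20, adjusted p = 0.00582). Slc6a13 had 93.7, 78.1 and 71.5, against 51.2, 26.6 and 29.1 (1.19 ± 0.22, adjusted p = 3.35e-05). All 3 genes, named because they passed the test, were higher in 3 of 3 libraries, with no overlap between the states. How many of all genes show no such overlap was not counted. Slc2a6 went the other way, with 17.1, 14.2 and 19.1 CPM in tumour-state sums, against 35.45, 40.8 and 43.7 in blood-like ones (-1.34 ± 0.28, adjusted p = 0.000216).

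Of the other carriers by which neutrophil-like barcodes stood out, Slc2a1, Slc16a3, Slc7a11 and Slc2a3 (0.02) did not pass the test between the states. Slc2a1 had 284, 303 and 322 CPM in tumour-state sums, against 252, 207 and 278 in blood-like ones (0.24 ± 0.11, adjusted p = 0.115). Slc16a3 had 404, 357 and 374, against 406, 295 and 441 (-0.08 ± 0.10, adjusted p = 0.653), and Slc7a11 137, 110 and 107, against 106, 160 and 103 (-0.19 ± 0.15, adjusted p = 0.428). Both of these pairs overlapped. Under the stricter barcode filter, 1 of 12 members was called in place of 4, and 377 of 3872 genes in place of 1154 of 5149. The calls for Slc38a2 (0.56, adjusted p = 0.201) and Slc6a13 (0.25, adjusted p = 0.689) were lost. Slc38a2 also missed the threshold without replicate 3 (0.53), with DESeq2 (0.68) and after thinning each barcode to 600 UMIs (0.40). Slc2a1 passed it with library totals (0.32, adjusted p = 0.0273) and Slc16a3 with Hilpda out of the list (-0.305, adjusted p = 0.00743). When a lead of at least 2 list genes was asked for, Slc7a11 (-0.66, adjusted p = 0.0118) and Slc38a1 (1.275, adjusted p = 0.0472) passed and Slc6a13 did not (0.80, adjusted p = 0.0506). Summed epithelial markers were 72.3 to 109 CPM in tumour-state sums and 26.6 to 76.0 in blood-like ones, and their part in the result was not tested.

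**Figure D4:**
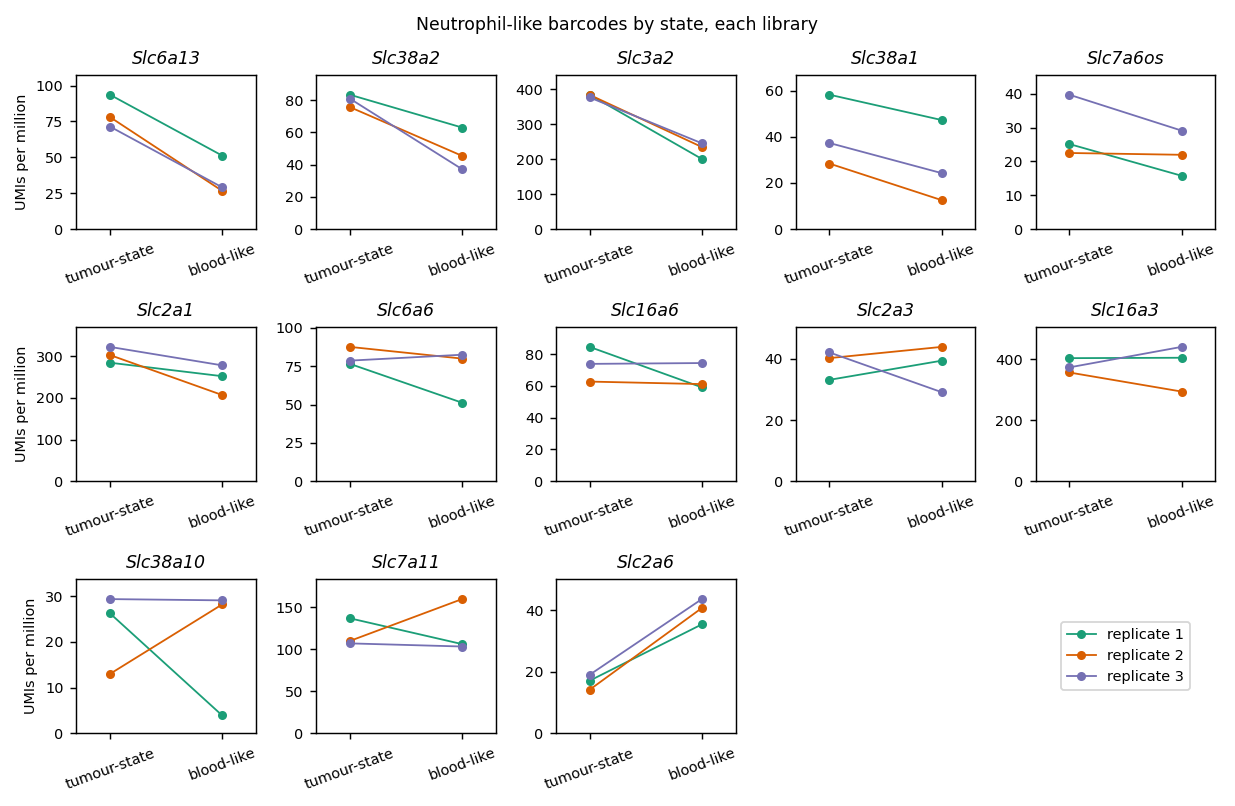
CPM of the 13 tested transporter genes in tumour-state (left) and blood-like (right) neutrophil-like barcodes, with 1 line per library and axes that start at 0. All 3 lines run downward from left to right for Slc6a13, Slc38a2 and Slc3a2 and upward for Slc2a6, while those of Slc16a3 and Slc7a11 cross.

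The series title names ICAM1-high neutrophils. Neutrophil-like barcodes thinned to 600 UMIs were divided by whether Icam1 was detected (383 barcodes) or not (4890), and none of 11 transporter genes passed the test (edgeR; 1 at an unadjusted p under 0.05, and 0 calls with DESeq2), where 0.413% of 3873 genes did. Slc2a1 had 318, 201 and 283 CPM in Icam1-detected sums, against 241, 256 and 270 in undetected ones (-0.01 ± 0.21 on the log2 scale). Slc3a2 had 169, 307 and 196, against 287, 290 and 324 (-0.43 ± 0.22, adjusted p = 0.712). The gene past the unadjusted threshold was Slc6a6, with 37.5, 47.3 and 43.6 against 70.1, 85.5 and 75.9 (-0.87 ± 0.40, adjusted p = 0.657), which rests on 10 UMIs in the detected group. Without thinning, 0 of 14 members passed, and 125 of 5639 genes did. Transcript detection is not surface ICAM1.

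A finer division of neutrophil-like barcodes by clustering is given as a description. Leaving out 26 barcodes with T-cell genes, 5 subclusters were found, and of the 16 members with at least 30 neutrophil-like UMIs, 7 were highest in the subcluster led by Hilpda and Cxcl3 (1614 barcodes), 6 in that led by Plau, Pdpn and Trib3 (460), 2 in that led by Ngp and Retnlg (1035), 1 in that led by Ltc4s and Siglecf (2563) and none in that led by Cxcl10 and Ifit genes (333). Slc2a1 had 409, 431 and 457 CPM in the Hilpda-led subcluster, against 144, 155 and 162 in the Siglecf-led one. Both carry tumour-state list genes, so the tumour state joined barcodes with high and low Slc2a1.

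Slc16a3 had 546, 497 and 542 CPM in the Hilpda-led subcluster and 535, 331 and 564.1 in the Retnlg-led one, against 196, 149 and 193 in the Siglecf-led one and 95.9, 166 and 151 in the Plau-led one. Slc7a11 was highest in the Retnlg-led subcluster at 192, 190 and 190, against 46.7, 60.4 and 53.9 in the Siglecf-led one. The heavy chain did not follow it: Slc3a2 had 441, 470 and 475 in the Hilpda-led and 453, 454 and 442 in the Plau-led subcluster, against 180, 217 and 212 in the Retnlg-led one. The Plau-led subcluster, which also had Trib3 and Atf5 among its leading genes, had the most Slc38a2, at 122, 140 and 175, where no library of any other subcluster exceeded 107.1. Slc2a6 had 72.1, 44.5 and 59.4 in the Retnlg-led and 42.8, 54.3 and 64.4 in the Ifit-led subcluster, and 0 to 8.72 in the Plau-led and Siglecf-led ones.

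**Figure D5:**
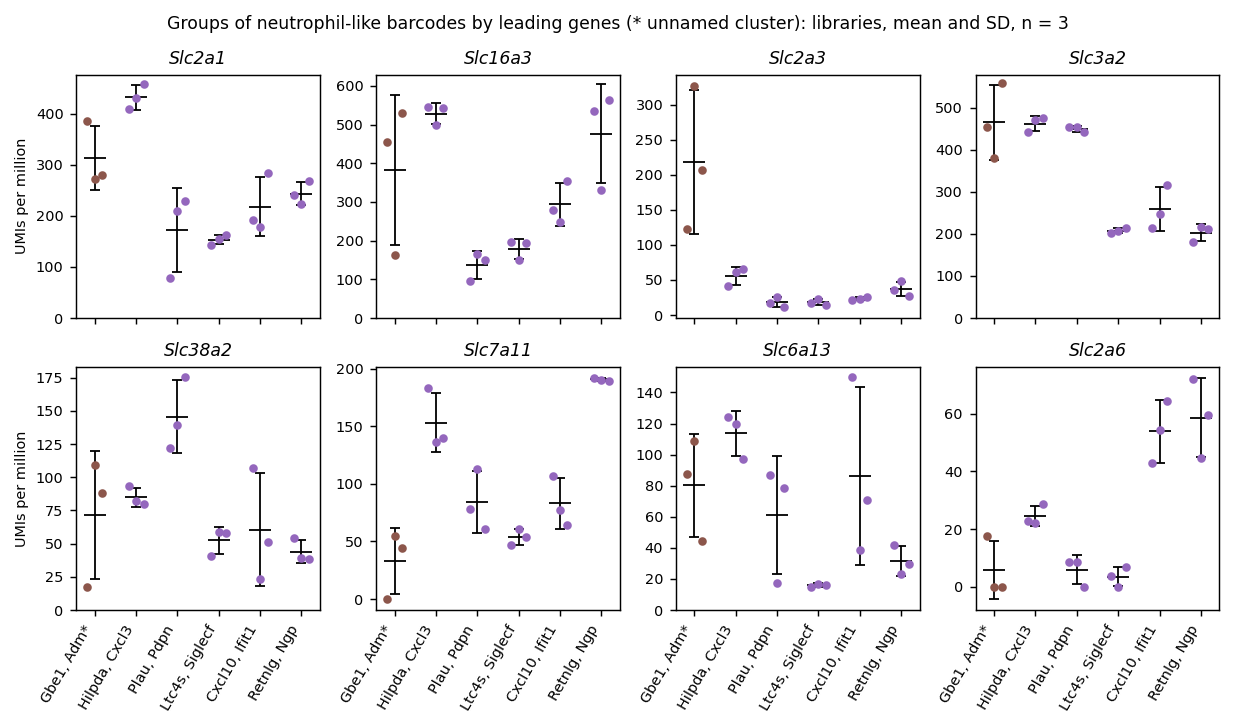
CPM of 8 transporter genes in each library (points), with the mean and SD (bars, n = 3), in an unnamed cluster led by Gbe1 and Adm (brown, left) and in 5 neutrophil-like subclusters labelled by leading genes (purple). Slc2a1 peaks in the Hilpda-led subcluster at 409 to 457, Slc7a11 in the Retnlg-led one at about 190, and Slc2a3 in the unnamed cluster at 122 to 327.

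Genes that work beside these carriers are given from 5 pathway lists, on the share scale only. The lists were not fitted per barcode. On that scale the median of all genes, neutrophil-like minus monocyte/macrophage-like, was -2.59. Of 19 glycolysis genes, 18 were higher in neutrophil-like than in monocyte/macrophage-like sums and Ldhb was lower (-2.88); the list median was 1.52, against -0.03 for all genes. Between the states, 13 of 17 glycolysis genes rose in the tumour state, where 11.0% of all genes rose, and Pfkfb4 fell (-0.75). Among those that rose were Hk2 (1.26), which traps glucose in the cell, Pfkl (1.18), Ldha (0.93), which makes lactate, and Pdk1 (1.31). The list median was 0.47, against 0.01 for all genes, although neither Slc2a1 nor Slc16a3 passed that test. Hilpda was among the genes that defined the tumour state, and the 5 lists were not repeated with Hilpda left out. Of the transport partners, Bsg, the chaperone that carries MCT4 to the membrane, rose by 0.97 and Emb, another such chaperone, fell by 1.10 on the log2 scale in the tumour state, and the other 4 did not pass. Against monocyte/macrophage-like sums, Bsg (1.07), Cd44 (1.87), Txnip (3.33), which restrains glucose uptake, and Arrdc4 were higher and Itgb1 lower (-0.27).

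In the amino acid response list, which holds ATF4 and genes it is known to act on, 9 of 13 measured genes were higher in neutrophil-like than in monocyte/macrophage-like sums and 2 lower. Ddit3 differed by 3.66, Trib3 by 4.60 and Asns by 3.19, while the serine-pathway genes Psat1 (-3.77) and Shmt2 (-2.76) were lower. In the tumour state 8 of 11 rose, including Atf4 (1.07), Ddit3 (1.17), Chac1 (1.66), Trib3 (1.04) and Vegfa (1.58), and none fell; the median was 1.07, against 0.01 for all genes. Slc3a2 and Slc38a2, both known targets of ATF4, were among the risen carriers, and Slc7a11 was not. The call for Slc38a2 was lost under several alternatives given above. The searched bases held 0 amino acid response matches for Slc3a2, 0 for Slc38a2 and 2 for Slc7a11. A part of ATF4 in these changes was not tested. In the glutathione and NRF2 list, 7 of 10 genes were higher in neutrophil-like than in monocyte/macrophage-like sums, but 1 of 9 rose in the tumour state (Hmox1, 1.19) and 4 fell, among them Gclm (-0.96), which helps to make glutathione, and G6pdx (-2.04). Of the glutamine, arginine and lactate enzymes, 4 of 12 were higher in neutrophil-like sums, including Arg2 (3.23) and Nos2 (4.12), and 6 lower, including Arg1 (-4.86), Ass1 (-5.01) and Glul (-2.75); the list median was -0.31, and 33.2% of all genes were higher and 33.4% lower. In the tumour state 1 of 8 rose (Odc1, 0.74) and 1 fell (Glul, -1.45). No gene of the 5 lists passed the test in the Icam1 comparison.

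Counting strand is not given in the sources used here, so reads of a carrier and of an overlapping gene on the opposite strand cannot be told apart. Such genes overlap Slc7a11 (Gm37854), Slc2a1 (Gm12867 and Gm12868), Slc7a5 (Gm20388), Slc7a7 (Oxa1l) and Slc16a6 (Amz2 and Arsg).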

How the data were processed

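Single-cell RNA was measured in 3 mouse libraries. The deposited matrices hold unnormalised UMI counts per gene and barcode; the submitters' processing notes list Cell Ranger, Seurat and mm10, without versions. Whether 5′ or 3′ chemistry was used is unclear, since the labels mention both. Filtering took out 22 barcodes for fewer than 200 genes and 107 for a mitochondrial share above 10% (some fell under both). Scrublet marked 1 barcode and so has not worked as a doublet caller. Its scores were still used to withhold the name of a cluster with a median score above 0.15, and in an alternative without the highest scores. Counts scaled to 10000 per barcode, 2000 variable genes without members, 30 components, 15 neighbours and Leiden resolution 1 gave the clusters (scanpy 1.11.5, igraph 0.11.9). A cluster was named from at least 3 markers, each in 10% or more of its barcodes and 2-fold higher there than elsewhere. Classes needed 20 barcodes in every library. UMIs were summed per library and class, so cells are not replicates. The sums were tested with edgeR 4.0.16 (quasi-likelihood, TMM, filterByExpr, R 4.3.3). Library was a block, since the sums compared come from the same libraries. All tested classes entered a joint fit that shared an estimate of the spread. Benjamini-Hochberg adjustment ran over all genes at 0.05, and DESeq2 1.42.0 was an alternative. The genes of the state lists and Icam1 were left out of counts of calls. The method was tested on simulated data.

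Members, marker sets and lists were chosen with earlier results of these data known. Named are, per contrast, up to 5 higher and 5 lower called members with at least 100 UMIs that moved the same way in every library, the member with most UMIs per family and all called members of the splits; the other genes with values were named after their values were seen. Sequences and gene positions (1-based) are from RefSeq GRCm38.p6 and GENCODE. Intervals and floors cover counting error only. Values of 1 member and the name of 1 state gene are not reported here.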

Additional observations from a re-analysis of the deposited data

Results flagged for a closer look

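A cluster of 146 barcodes that met no rule for a name (65, 20 and 61 barcodes in replicates 1, 2 and 3) and so entered no comparison held more of certain carriers than any tested class. It was led by Gbe1, Adm, Mgarp, Hspa1a, Hilpda, Ero1l, Egln3 and Bnip3, several of which are known to respond to low oxygen, and at Leiden resolution 0.5 all 146 barcodes fell in the neutrophil-like class. Slc2a3, itself among its 10 leading genes, averaged 218.6 ± 102.9 CPM (SD, n = 3), on 7, 6 and 14 UMIs, while the highest library of any tested class had 40.9. Slc3a2 averaged 465.4 ± 89.7, on 26, 7 and 38 UMIs, while the highest library of any tested class had 319. Within the neutrophil-like class Slc3a2 was as high in 2 subclusters, averaging 462 ± 18.3 in the Hilpda-led and 449.5 ± 6.92 in the Plau-led one, while Slc2a3 averaged 55.9 ± 13.2 and 18.6 ± 7.10 in them. The 146 barcodes had a median of 927.5 UMIs. The part of cell stress in these levels was not tested.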

How the results depend on the processing

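The number of transporter genes called was between 12 and 19 for neutrophil-like against the other classes (17 as reported), 18 to 27 against monocyte/macrophage-like (21), 49 to 86 summed over the other 6 classes (69), and 0 under every alternative for Icam1. These counts rest on unlike numbers of genes tested. With no filter on low counts, the 27 were of 58 members, and 7408 of 17570 genes were called. As reported, the 21 were of 27 members, and 6282 of 9436 genes were called. Without the replicate block the counts were 16, 21, 70 and 0, and 4 for the states; the block changed no count by over 1.5 times. Leaving out each replicate in turn gave 5 to 9 for dendritic-cell-like (10), 2 to 5 for NK-cell-like (5) and 3 to 4 for the states (4). The NK-cell-like count was 3 with DESeq2 and 1 with classes from marker UMIs alone, where 2163 of 9436 and 1255 of 8493 genes were called. The state count was 1 under the stricter barcode filter, where 377 of 3872 genes were called. The cause was not tested. At subcluster resolution 0.3, 8 of 16 members were highest in the Hilpda-led subcluster (7 as reported). Over 1043 alternative values for single genes, 69 lost their call, 10 gained one and 9 changed direction. Per barcode, neutrophil-like minus monocyte/macrophage-like, the log2 differences were -0.23 for Slc16a3, -1.90 for Slc16a6, -2.21 for Slc2a6, -2.02 for Slc38a1, -1.38 for Slc38a2, -1.97 for Slc3a2, -1.87 for Slc7a5 and -1.36 for Slc7a6os, because the median of all genes moved to -2.59; with classes from marker UMIs alone Slc6a2 turned to 1.82. Library totals moved the median of all genes to -0.31 for neutrophil-like against the other classes and to -0.34 against monocyte/macrophage-like. Genes with under 100 UMIs, which include 5 of the 10 not tested, allow no comparison between classes other than those where nearly all UMIs sit in 1 class.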
